A study of Homo sapiens with 8 samples.

Results

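The 41 genes described here build 2 lipid-linked sugar structures of the endoplasmic reticulum (ER): 25 make, attach or remodel the glycosylphosphatidylinositol (GPI) anchor, and 16 make the dolichol-linked sugars used for N-glycosylation. They were taken by name from the 20033 protein-coding genes of GENCODE release 44, and each was examined for HA ChIP-Seq peaks of PHF20 and PHF20L1 at its promoter. A gene was called bound by a protein when a peak on that protein's list reached the promoter window, defined as the 1000 bp before and the 500 bp after the transcription start site (TSS), of any of its annotated transcripts. The list is one of gene names and uses no binding value, but it was chosen with earlier results of these data known.

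GPI anchors are glycolipids that hold many proteins at the cell surface. They are assembled sugar by sugar on an ER membrane lipid and then joined to the carboxyl end of a protein by a transamidase. The N-glycan precursor is assembled on dolichol, first on the cytosolic and then on the lumenal face of the ER membrane, and is moved as a whole to asparagine residues of new proteins. Both routes use mannose carried by dolichol phosphate, which is why the genes that make this donor serve both. PHF20 and PHF20L1 are related chromatin-binding proteins of the NSL histone acetyltransferase complex.

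All libraries came from U2OS, a human osteosarcoma cell line that over-expressed a protein with a 3xHA peptide tag recognized by the antibody. For PHF20, 2 ChIP libraries and 1 input library without antibody were made from cells with an N-terminal tag. For PHF20L1, 1 ChIP library and 1 input carried the N-terminal tag, and 2 ChIP libraries and 1 input the C-terminal tag. Per the study's methods, the tagged protein was delivered by lentivirus and GFP-positive cells were sorted before library preparation. The binding of untagged protein at its natural level was therefore not measured, and peak positions alone do not allow the cell line to be checked against marker genes. The authors combined the libraries into 1 final list per protein, with 4147 peaks for PHF20 and 723 for PHF20L1. These lists give the start and end of each peak on hg38 and no height, read count or replicate value. No test between groups was possible, and every comparison below is a count or a median set beside the same quantity over all protein-coding genes. A gene without a listed peak was one not called at the authors' thresholds, and binding below them cannot be seen in these lists.

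PHF20 peaks lay at the promoters of 21 of the 41 genes (51.2%), against a background of 20.7% of all protein-coding genes. PHF20L1 peaks lay at 5 of the 41 (12.2%), against 3.82%. The 5 genes with a PHF20L1 peak were PIGC, PIGG, PIGO, PGAP3 and ALG1, and each also had a PHF20 peak. This holds for PHF20L1-bound genes in general, since 747 of all 766 such protein-coding genes also had a PHF20 peak. Among the 21 genes with a PHF20 peak these 5 made up 23.8%, and over all PHF20-bound protein-coding genes the share with a PHF20L1 peak was 18.0%. The remaining 20 genes had a peak of neither protein. With only the canonical TSS of each gene, 20 genes (48.8%) had a PHF20 peak against 19.1% of coding genes, and the same 5 genes had a PHF20L1 peak against 3.47%. The gene lost was ALG5.

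Within each protein's list, the 22 PHF20 peaks and the 6 PHF20L1 peaks were different regions, so that no peak was shared between members. The 41 genes lay on 18 chromosomes. The GPI branch had PHF20 peaks at 14 of 25 genes (56.0%) and PHF20L1 peaks at 4 of 25 (16.0%). The dolichol and N-glycan branch had PHF20 peaks at 7 of 16 genes (43.8%) and a PHF20L1 peak at 1 of 16 (6.25%). Both branches contained bound and unbound genes at nearly every point of the route, as the plot of genes by step shows.

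**Figure D1:**
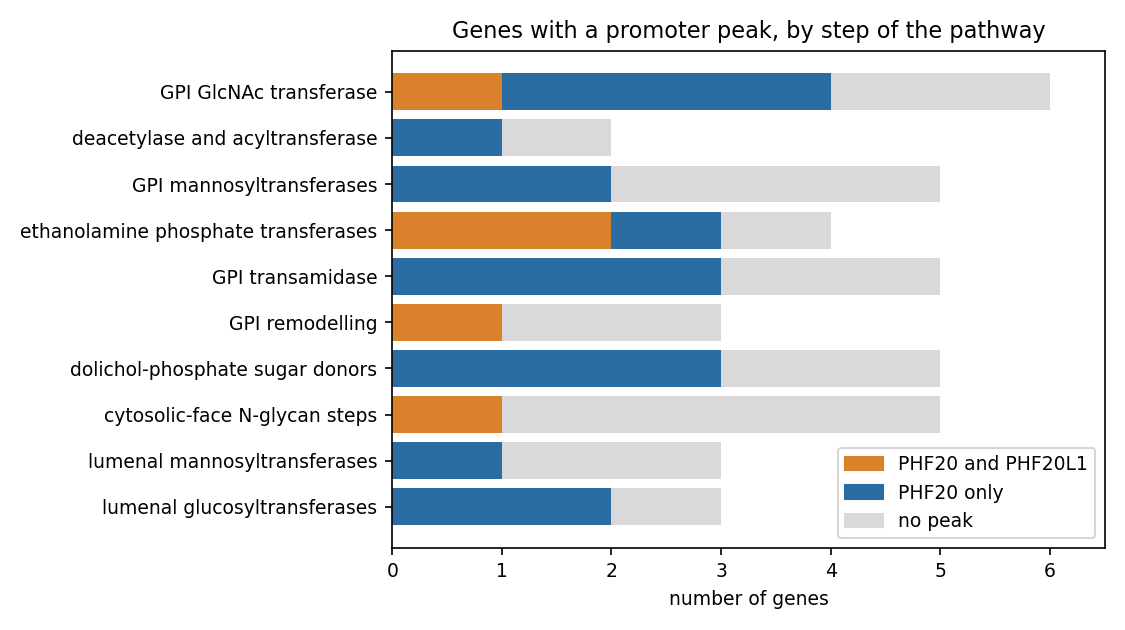
Number of genes at each step of GPI anchor and dolichol-linked glycan synthesis (horizontal axis), divided into those with promoter peaks of both proteins, of PHF20 alone and of neither. All 10 steps hold at least 1 gene with a PHF20 peak and at least 1 without a peak.

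GPI synthesis starts with the transfer of N-acetylglucosamine (GlcNAc) to phosphatidylinositol by a complex of 6 listed subunits. PHF20 peaks lay at 4 of them, PIGC, PIGH, PIGQ and PIGY, whereas PIGA, which encodes the catalytic subunit, and PIGP had none. At PIGC the PHF20 peak was 627 bp wide (chr1:172443583-172444209) and reached 140 bp upstream and 486 bp downstream of the canonical TSS. Its PHF20L1 peak of 338 bp (chr1:172443706-172444043) lay wholly inside and began 26 bp downstream of that TSS, so that the PHF20L1 peak did not cover it. The PIGH peak was 939 bp wide (chr14:67599840-67600778), at the 78.6th percentile of width in the PHF20 list. PIGY had a peak of 1192 bp (chr4:88523212-88524403), at the 92.5th percentile. PIGY and PYURF share a start site and the HERC3 TSS lay 34 bp away on the other strand, so this peak cannot be given to 1 of these 3 genes.

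The next product is deacetylated by PIGL, which had a PHF20 peak, and its inositol is acylated by PIGW, which had none. Of the genes for the mannosyltransferases, PIGB, for the third mannose, and PIGV, for the second, had PHF20 peaks. PIGM, for the first mannose, PIGX, its partner subunit, and PIGZ, for the fourth, did not. The PIGB peak was 886 bp wide (chr15:55318670-55319555) and reached 552 bp upstream and 333 bp downstream of the TSS. It also covered the TSS of PIGBOS1, 99 bp away and divergent, and overlapped the promoter window of RAB27A.

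Ethanolamine phosphate is added to the anchor by PIGN, by PIGO and by PIGG, with PIGF as the partner subunit of PIGO and PIGG. PHF20 peaks lay at PIGO, PIGG and PIGF but not at PIGN, and PHF20L1 peaks at PIGO and PIGG. This was the only one of the 10 steps with more than 1 PHF20L1-bound gene. At PIGG the PHF20 peak was 950 bp wide (chr4:498863-499812) and the PHF20L1 peak 715 bp (chr4:499100-499814), at the 97.5th percentile of the PHF20L1 list. They overlapped by 713 bp, which is 99.7% of the PHF20L1 peak, and both covered the PIGG TSS. ZNF721 starts 54 bp away on the other strand inside the PHF20 peak. At PIGO the peaks were 794 bp (chr9:35095979-35096772) and 512 bp (chr9:35096146-35096657), the second wholly inside the first and both over the TSS.

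The transamidase has 5 subunits, and PIGS, PIGT and PIGU had PHF20 peaks. PIGK, the catalytic subunit, and GPAA1 had none. PIGT, chosen by the study among its example genes, had a PHF20 peak of 1242 bp (chr20:45415598-45416839) at the 94.1st percentile, reaching 543 bp upstream and 698 bp downstream of the TSS, and no PHF20L1 peak. No other protein-coding promoter window was touched by it. Of the remodelling genes, PGAP3, which removes a fatty acid from the anchor lipid, had peaks of both proteins, and PGAP1 and PGAP2 had neither. The PGAP3 PHF20 peak of 1379 bp (chr17:39687448-39688826) was at the 97.3rd percentile, while the PHF20L1 peak inside it was 284 bp (chr17:39688026-39688309) and at the 40.7th percentile of its own list. The PHF20 peak also reached the promoter window of a transcript of ERBB2.

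The dolichol phosphate donors of mannose and glucose had PHF20 peaks at DPM1, the catalytic subunit of the mannose donor synthase, at MPDU1, needed for the use of these donors, and at ALG5, which makes the glucose donor. DPM2 and DPM3, the other subunits of the mannose donor synthase, had none. The DPM1 peak of 1141 bp (chr20:50958079-50959219) covered the DPM1 TSS and that of the divergent gene MOCS3, 286 bp away. The ALG5 peak of 475 bp lay 1220 to 1694 bp upstream of the canonical TSS and was reached only through other ALG5 transcripts, and it also overlapped the promoter window of EXOSC8.

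Of the 5 genes acting on the cytosolic face, only ALG1, which adds the first mannose, had peaks. ALG13 and ALG14, whose products form the enzyme for the second GlcNAc, and the mannosyltransferase genes ALG2 and ALG11 had none. At the canonical ALG1 TSS the PHF20 peak was 833 bp (chr16:5071581-5072413) and the PHF20L1 peak 359 bp (chr16:5071715-5072073), wholly inside it. A wider pair of peaks, of 1661 bp for PHF20 (chr16:5032835-5034495) and 724 bp for PHF20L1 (chr16:5033325-5034048), was counted for ALG1 because 7 of its transcripts have a window there. These peaks lay between 37348 and 39008 bp upstream of the canonical TSS and overlapped the promoter window of NAGPA, so the widest value for ALG1 belongs to a promoter region it shares with that gene. On the lumenal face, ALG3 of the mannosyltransferase genes had a PHF20 peak of 1284 bp (chr3:184248371-184249654), while ALG9 and ALG12 had none. Of the glucosyltransferase genes, ALG8 had a peak of 1415 bp (chr11:78138979-78140393, 97.7th percentile) and ALG10 one of 665 bp, and ALG6 had none.

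**Figure D2:**
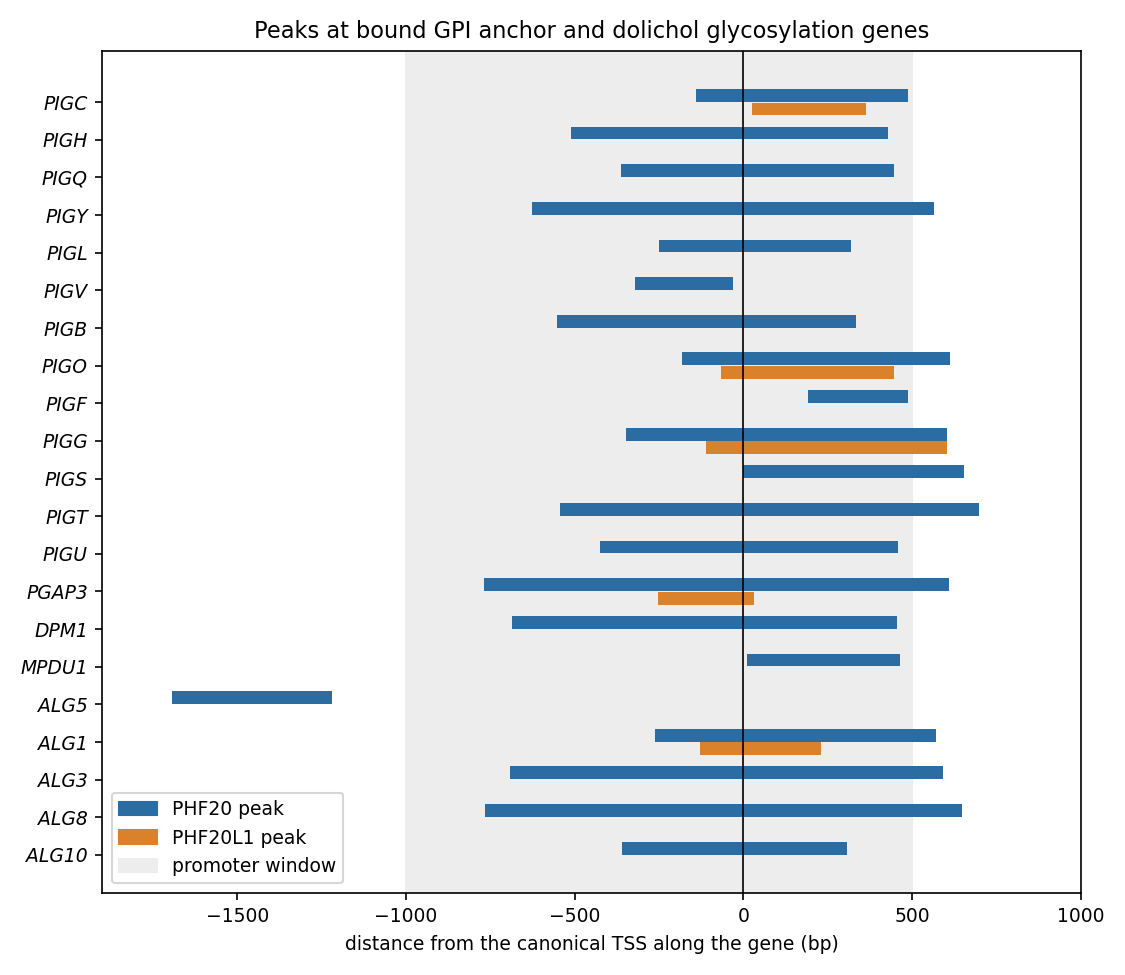
Extent of PHF20 and PHF20L1 peaks at the 21 bound genes against distance from the canonical TSS in bp, with upstream to the left and the promoter window shaded. The ALG5 peak lies wholly upstream of the window, and the ALG1 peaks from 37348 bp upstream on are beyond the axis and not drawn.

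The canonical TSS was covered by a PHF20 peak in 17 of the 20 genes with a peak in the canonical window (85.0%), against 69.8% of such protein-coding genes. The 3 exceptions were PIGF, whose peak began 191 bp downstream, MPDU1, whose peak began 10 bp downstream, and PIGV, whose peak ended 33 bp upstream. Peak centres lay between −177.5 and 338.5 bp from the canonical TSS, with a median of 25.2 bp, against a median of −0.5 bp over protein-coding genes. The centre was downstream of the TSS in 11 of 20 genes (55.0%) and in 49.9% of protein-coding genes. No peak of either protein lay in the body of a member outside a promoter window.

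The widest PHF20 peak per bound member had a median of 884 bp (range 290 to 1661 bp, n = 21), against 682 bp over the 4148 bound protein-coding genes. The member's value was above the coding-gene median in 13 of the 21 genes. The median was 846.5 bp for the 14 GPI genes and 1141 bp for the 7 dolichol genes, and the ranges of the branches overlapped over most of their length (290 to 1379 bp and 453 to 1661 bp). This order rests on the distal ALG1 peak in the NAGPA promoter region: with the peak nearest the canonical TSS taken for each gene, a choice made after seeing the data, the dolichol median was 833 bp, the GPI median stayed at 846.5 bp, and the median over all 21 members was 833 bp against 674 bp over coding genes. The 5 genes with a PHF20L1 peak had a median PHF20 width of 950 bp (627 to 1661 bp), against 846.5 bp (290 to 1415 bp) for the 16 without. Over protein-coding genes these medians were 989 and 614 bp. With the peak nearest the canonical TSS, the members with a PHF20L1 peak had a median of 833 bp, below the 846.5 bp of those without, against 983 and 602 bp over coding genes. The members without a PHF20L1 peak had the higher median beside such coding genes under both choices, whereas the order of the 2 groups of members turned with the ALG1 peak. The narrowest members were PIGV, PIGF, MPDU1 and ALG5, between 290 and 475 bp, and PIGL, PIGS, PIGQ and PIGU lay between 571 and 884 bp. PHF20L1 peaks at the 5 members had a median of 512 bp (284 to 724 bp), against 331.5 bp over the 766 bound coding genes. With the peak nearest the canonical TSS these medians were 359 and 330.0 bp, so the larger difference rests on the distal ALG1 peak.

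**Figure D3:**
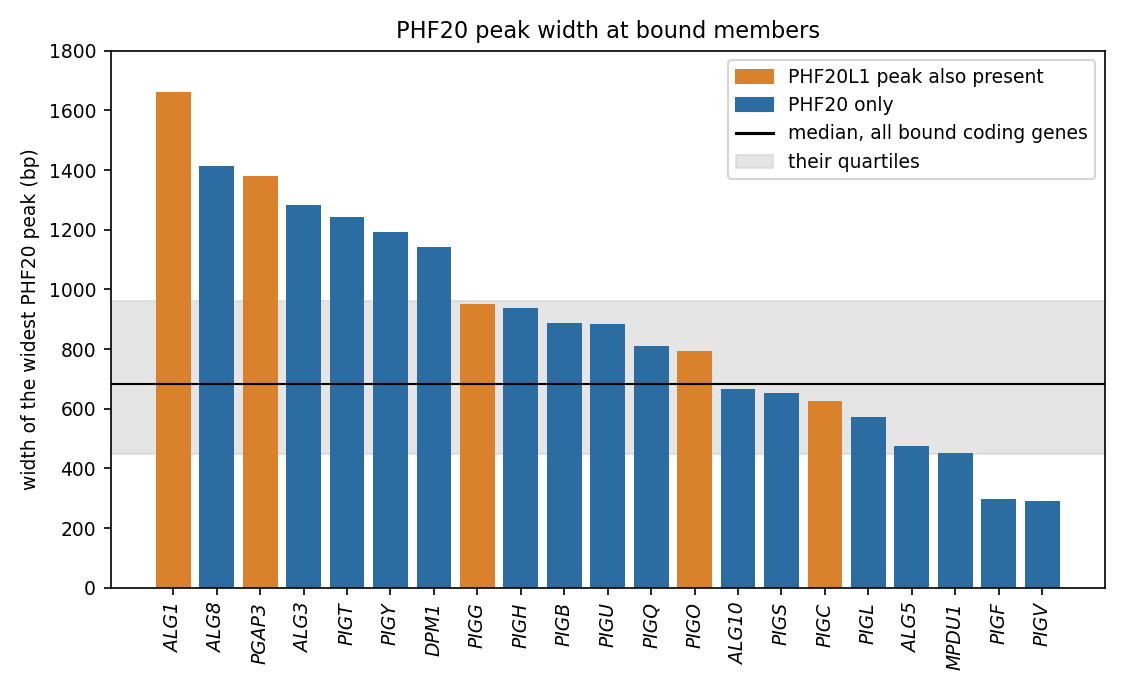
Width of the widest PHF20 peak in bp at each of the 21 bound members (bars), with the median and quartiles over all 4148 bound protein-coding genes as line and band. Genes with a PHF20L1 peak stand at several places in the order, from ALG1 at 1661 bp, for its distal peak, to PIGC at 627 bp.

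Promoters of protein-coding genes differ in their content of CpG, and all 41 members had an observed/expected CpG ratio of at least 0.6 in the 300 bases from 250 upstream of the canonical TSS, as did 67.4% of all protein-coding genes. Among protein-coding genes above this ratio 28.6% had a PHF20 peak and 5.24% a PHF20L1 peak. The members' shares of 51.2% and 12.2% therefore stood beside a higher background when genes of like CpG content were taken. Within the members, the median ratio was 0.891 for the PHF20-bound and 0.861 for the unbound genes, and the median G+C content 61.3% and 64.8%. The ranges overlapped, from 0.606 to 1.215 in the bound and from 0.614 to 1.042 in the unbound genes. Over protein-coding genes the bound and unbound medians of the ratio were 0.889 and 0.723.

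**Figure D4:**
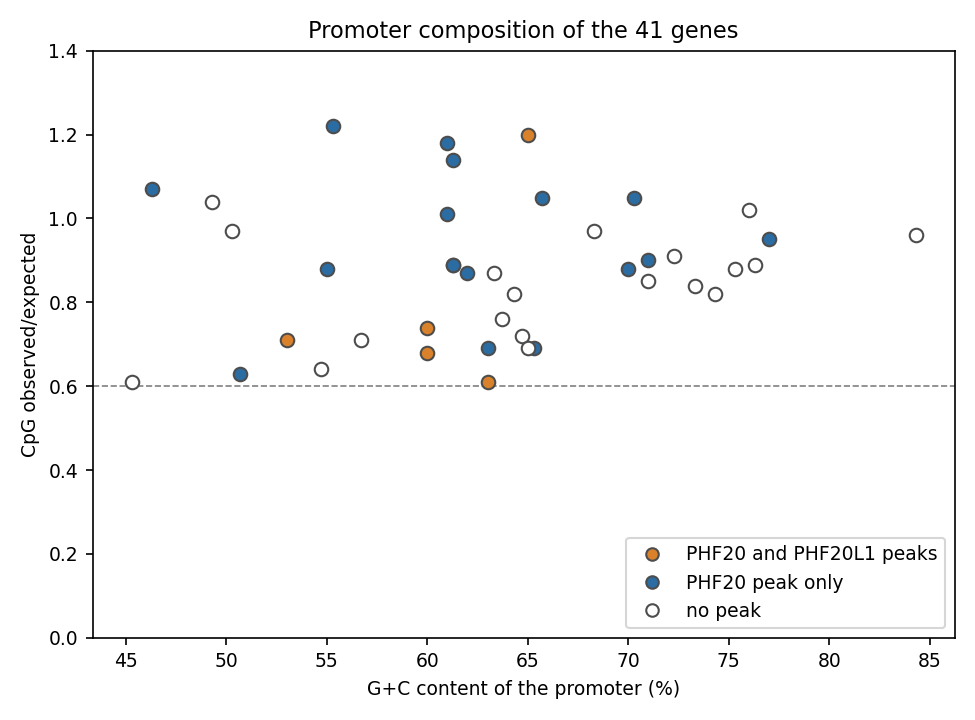
CpG observed/expected ratio against G+C content (%) of the 300-base promoter of each of the 41 genes, with genes bound by both proteins, by PHF20 alone and by neither marked. All points lie above the dashed line at 0.6, and bound and unbound genes are mixed.

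A protein-coding TSS on the other strand within 1000 bp upstream was found at 13 of the 41 genes (31.7%), against 9.46% of all protein-coding genes. In protein-coding genes with such a divergent neighbour 46.6% had a PHF20 peak, and in those without it 18.0%. Of the 13 members with a divergent neighbour 6 were bound (46.2%), which is close to that background, and of the 28 without one 15 were bound (53.6%). The 6 were PIGB, PIGF, PIGG, PIGY, DPM1 and ALG3, and at PIGB, PIGG, PIGY and DPM1 the peak covered both start sites. The 7 unbound genes with such a neighbour were PIGN, PIGP, PIGW, PIGX, ALG2, ALG11 and ALG12. In all, 10 of the 21 bound members (47.6%) had a peak that also overlapped the promoter window of another protein-coding gene, against 38.2% of bound protein-coding genes. Of these, ALG1 shared only its distal peak with another gene, and its peak at the canonical TSS was not shared. For the others the gene to which the peak belongs cannot be told apart from position alone.

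Measured from the canonical TSS, the 20 unbound genes were far from PHF20 peaks with few exceptions. GPAA1 was nearest, with a peak ending 3593 bp upstream of its canonical TSS, and the other 19 were more than 10000 bp away. PIGZ followed at 25642 bp and ALG12 at 26182 bp. DPM3, PIGX and PIGP lay at 68186, 79354 and 82556 bp. For PIGX the first annotated start, at chr3:196639775, lay closer to that peak, which ended at chr3:196633023. The remaining 14, which were PGAP1, DPM2, ALG9, ALG6, ALG14, ALG11, PIGM, PGAP2, PIGK, ALG2, PIGW, PIGN, PIGA and ALG13, lay from 126584 to 2144138 bp away. The median was 158193.5 bp, against 163770 bp for the protein-coding genes without a promoter peak, so these genes were about as far from a peak as unbound genes in general.

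Short words of promoter sequence were then counted on both strands in the 300 bases around the canonical TSS. ACTTCCGG, a word of the kind bound by ETS factors, and CACGTGAC, which holds an E-box, had been found in these same peak lists earlier, so their presence is a description only. ACTTCCGG occurred in 9 of the 41 promoters (22.0%), against 6.14% of all protein-coding promoters, 16.5% of the PHF20-bound and 3.44% of the unbound ones. It was present in 6 of the 21 PHF20-bound members, which were PIGB, PIGC, PIGF, PIGO, PGAP3 and ALG10, and in 3 of the 20 unbound members, which were GPAA1, DPM3 and ALG14. Of the 5 members with a PHF20L1 peak, PIGC, PIGO and PGAP3 held it, against 22.8% of all PHF20L1-bound promoters. CACGTGAC occurred in ALG1 and in the unbound PIGP, against 3.46% of all promoters, 6.56% of the PHF20-bound and 9.14% of the PHF20L1-bound ones. PIGG held neither word.

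The stretches that hold these words in the PHF20L1-bound promoters are shown first, followed by bound members without PHF20L1 and by unbound members with the same word, so that the bound and unbound sites can be compared. All are from hg38, written in the direction of the gene, with the word or its reverse complement in capitals.
PIGC, chr1:172444057-172444109, minus strand: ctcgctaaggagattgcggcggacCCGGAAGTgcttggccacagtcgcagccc
PIGO, chr9:35096573-35096602, minus strand: tcgcaggcgccgccgccgccgcACTTCCGG
PGAP3, chr17:39688067-39688096, minus strand: aacacaggaACTTCCGGttactCCGGAAGT
ALG1, chr16:5071820-5071855, plus strand: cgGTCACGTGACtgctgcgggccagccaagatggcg
PIGB, chr15:55319122-55319151, plus strand: acgaagttgcccgttcccggttACTTCCGG
DPM3, chr1:155140537-155140566, minus strand: agcggaacgtgaaccagggaggACTTCCGG
ALG14, chr1:95072922-95072954, minus strand: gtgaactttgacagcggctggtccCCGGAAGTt
PIGP, chr21:37073201-37073255, minus strand: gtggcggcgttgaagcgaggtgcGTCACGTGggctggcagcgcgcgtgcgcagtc

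PGAP3 had 2 copies, on opposite strands and starting 30 and 17 bp upstream of the TSS, and both lay inside its PHF20L1 peak of 284 bp. In ALG1 the 2 copies of CACGTGAC overlap on opposite strands, start 21 and 19 bp upstream of the TSS and lie in both peaks at that TSS. The PIGO copy, 11 bp downstream of the TSS, was also inside both peaks. The PIGC copy began 16 bp upstream and was inside the PHF20 peak but outside the PHF20L1 peak. The same word thus lay inside peaks and, in DPM3 and ALG14, in promoters without any.

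The other words were found as follows. GCATGCGC, with the core of the NRF1 site, occurred in ALG8 in 2 copies, 63 and 20 bp upstream of the TSS and inside its PHF20 peak, and in the unbound ALG6 and ALG14, against 4.27% of all promoters. AAGATGGC, the word of YY1 sites, occurred in the bound ALG1 and ALG3 and the unbound ALG11 and ALG12, which is 9.76% of members against 4.04% of promoters. TCTCGCGA occurred in the unbound PIGN alone (1.73% of promoters) and ACTACAAT in no member (0.669%). CCAAT was in 13 members (31.7%, against 36.1%) and GGGCGG, the GC box, in 28 (68.3%, against 61.3%). The PIGT promoter held CCAAT and none of the other 7 words.

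Beyond the 41 genes, 29 others of the same pathways were counted from a list, also chosen with earlier results known. PHF20 peaks lay at 11 of them (37.9%) and a PHF20L1 peak at 1 (3.45%), beside the same background of 20.7% and 3.82%. All 29 promoters had a CpG ratio of at least 0.6. Beside protein-coding genes with such a ratio the background was higher, at 28.6% and 5.24%. The bound genes were 3 of 12 for the oligosaccharyltransferase, which moves the finished glycan to protein (DDOST, TMEM258 and RPN1), 2 of 6 for dolichol synthesis and the first steps on it (DOLK and DPAGT1), and 2 of 5 for the mannose donor (GMPPA and GMPPB). They were 3 of 5 for accessory GPI genes (ARV1, MPPE1 and PGAP4), and ALG10B, the paralogue of ALG10. RPN1 was reached only through 1 transcript with a start far upstream, since its peaks lay 30202 to 30756 bp from the canonical TSS. The DOLK peak lay 375 to 645 bp upstream of the TSS and also overlapped the promoter window of NUP188. Peaks of TMEM258 (FADS2 and FEN1), DPAGT1 (C2CD2L) and ARV1 (TTC13) overlapped those of other genes as well. The widest PHF20 peaks of this list were those of MPPE1 with 1295 bp, DDOST with 1053 bp and PGAP4 with 1052 bp, and the PHF20L1 peak was that of ALG10B with 237 bp.

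ALG10 and ALG10B had different peak content although their promoters are near copies. Both had a PHF20 peak over the TSS, of 665 bp at ALG10 (chr12:34022137-34022801) and 766 bp at ALG10B (chr12:38316549-38317314). Only ALG10B had a PHF20L1 peak, of 237 bp and at the 19.5th percentile of width in the PHF20L1 list. Aligned over 300 bases, the promoters were identical at 251 positions and differed at 31 (89.0% identity), with 36 gap bases. Both hold ACTTCCGG on the reverse strand, 161 and 144 bp upstream of the TSS, inside the PHF20 peak.
ALG10, chr12:34022311-34022366, plus strand: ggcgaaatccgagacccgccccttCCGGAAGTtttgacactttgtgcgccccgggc
ALG10B, chr12:38316606-38316661, plus strand: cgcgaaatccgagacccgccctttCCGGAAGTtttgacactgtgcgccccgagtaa
Of the 616 stretches of 50 bases in the ALG10 peak, 65 (10.6%) occur unchanged within 2000 bp of the ALG10B TSS, and of the 717 in the ALG10B peak 100 (13.9%) occur near ALG10. A read of that length from those stretches has no unique position, and the part of this in the peaks of the pair was not tested.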

How the data were processed

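HA ChIP-Seq libraries of PHF20 and PHF20L1 in U2OS cells were grouped by the tagged protein and by antibody or input, as labelled. The authors mapped reads to hg38, kept reads with 1 position, then removed duplicates, called peaks against the input and removed blacklisted regions. They discarded a PHF20 replicate whose peak calling failed. For each protein they kept the peaks of the best replicate that overlapped those of the others. The submitters' processing notes name Bowtie 1.1.2 and MACS2 2.2.7.1. The deposited peak lists used here hold positions only, with no score or count, so depth per library could not be computed from them, and reads or other deposited data were not analysed here. For the same reason depth, threshold, tag position, number of libraries and protein cannot be told apart as sources of the unequal lengths of the lists.

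Peaks were compared with GENCODE release 44, later than the authors' release, at an overlap of at least 1 bp, and coordinates were counted from 1. Distances were taken along the gene from the Ensembl canonical TSS. Promoter composition and words were read in the 300 bases from 250 upstream. Printed stretches were limited to 30 bases of untranslated region. All members are named. Positions are given for those with a PHF20L1 peak, the 10 with the widest PHF20 peak and PIGT. Of the other pathway genes, those with a PHF20L1 peak or the 3 widest PHF20 peaks are given with their widths. ALG10, ALG5, PIGF, PIGV and MPDU1, and of the other pathway genes RPN1, DOLK, TMEM258, DPAGT1 and ARV1, were described in addition after their values were seen. The members, lists and words were chosen with earlier results of these data known. Alternatives were other TSS sets, windows, overlaps and minimum widths. Python 3.11.15, numpy 2.4.6, pysam 0.24.0 and matplotlib 3.10.9 were used. The promoter-window overlap and word steps were tested on simulated data, and the distance steps were not. Results for part of the other pathway genes and sequences are not reported here.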

Additional observations from a re-analysis of the deposited data

How the results depend on the processing

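Across the other windows, TSS sets, overlaps and minimum widths, 16 to 21 members had a PHF20 peak and 4 or 5 a PHF20L1 peak. The shares of protein-coding genes ran from 12.1% to 21.1% for PHF20 and from 2.11% to 3.89% for PHF20L1. The median PHF20 width at members ran from 833 to 944.5 bp. Its lowest value came with the peak nearest the canonical TSS taken for each gene, which was chosen after seeing the data. With peaks of at least 300 bp, PIGF and PIGV lost their PHF20 peak and PGAP3 its PHF20L1 peak. This left 19 members for PHF20, against 18.6% of protein-coding genes, and 4 for PHF20L1, against 2.27%. With only the peaks whose width reached their list's median, 16 members kept a PHF20 peak while the coding-gene shares were 12.1% for PHF20 and 2.11% for PHF20L1. PIGF, PIGL, PIGV, MPDU1, ALG5 and, for PHF20L1, PGAP3 were the genes lost. An overlap of at least 50% of both peaks left 3 of the 5 members with overlapping peaks. The share over all protein-coding genes was not computed under that rule, and PHF20L1 peaks were narrower in general (list medians 314 and 599 bp). The count therefore describes no trait of these members. Assigning each peak only to its nearest canonical TSS, an alternative chosen after seeing the data, left 18 members for PHF20 (16.8% of coding genes; PIGB, PIGY and ALG5 lost) and 5 for PHF20L1 (2.99%). ACTTCCGG occurred in 12 members within 500 bp on both sides of the TSS. No share over all protein-coding genes is available for that window, so this count stands without a background. The word lay in the PHF20 peaks of 6 of the 21 bound members (PIGB, PIGC, PIGO, PGAP3, DPM1 and ALG10). Among all PHF20 peaks it lay in 670 of 4147 (16.2%). The searched member peaks were wider, with a median of 833 bp against 599 bp for the list, so the 2 counts are not at like length. The 6 members differ from the 6 bound members with the word in the 300 bases by DPM1 in place of PIGF. No paired analysis was possible because the authors' lists hold no values per library, and for the same reason no library could be left out.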
